A study of Mus musculus with 12 samples.

Results

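The 9 genes described here belong to the interferon response and to the presentation of antigens by MHC class I: B2m, H2-D1 and H2-K1 for MHC class I, and Irf7, Ifit1, Ifit3, Oasl2, Bst2 and Ifi27 for the interferon-induced genes. They were chosen by symbol. All 9 were found among the 32494 genes of the deposited table, and all 9 were among the 15359 genes tested, which had a mean of at least 1 normalized CPM (counts per M reads of a library, after the authors' scaling) over 12 libraries. Each library came from the hypothalamus of a male mouse with floxed Smc3 alleles that had received tamoxifen. The labels place collection 5 weeks after tamoxifen and state 8 weeks as the age, with no word on when. The WT group (n = 7) had no Camk2a-cre/ERT2 and the cKO group (n = 5) carried it. That transgene makes a tamoxifen-dependent recombinase under the Camk2a promoter, which acts mainly in forebrain excitatory neurons, so glia, vessels and most inhibitory neurons are not its targets. Smc3 encodes part of cohesin, a ring that keeps sister chromatids paired and organises chromatin into loops, and the series asks what its loss in neurons, described there as made in adulthood, does to the brain. Mice are named by group and by the number in their title. Every title, in both groups, also has the word control, whose meaning is not given and which was not used.

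Interferons are secreted when a cell detects viral or misplaced nucleic acid. Type I interferons bind a receptor on most cells, whose kinases activate STAT transcription factors, and these act with IRF9 at the interferon-stimulated response element (ISRE) in the promoters of many antiviral genes. MHC class I consists of a heavy chain, such as H2-K1 or H2-D1 in the mouse, paired with B2m, and shows peptides from inside the cell to CD8+ T cells. In the healthy brain, class I is carried mostly by vessel cells and microglia and, at lower levels, by some neurons, and interferons raise it.

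The total level of the targeted gene was higher, not lower, in the libraries labelled cKO. Smc3 ranged from 76.8 to 85.7 CPM in WT (mean 81.6 ± 3.14, SD, n = 7) and from 116 to 144 CPM in the libraries labelled cKO (mean 131 ± 10.3, SD, n = 5), so the groups did not overlap (limma log2 fold change 0.67 ± 0.05 SE, adjusted p = 3.06e-05). A gene total does not show whether the floxed exons are present, so "cKO" means below only that a library carries this label. WT 1 was the deepest library at 68.7 M recovered reads, and the other 11 held 17.1 to 24.01 M. The hypothalamus label was checked against 13 marker genes of that region, among them those of the hypothalamic neuropeptides. Their summed level was between 354 and 682 CPM in 8 libraries, and 69.2 in WT 5, 85.3 in WT 4, 147 in cKO 12 and 218 in cKO 13. These 4 libraries stood apart, so the fits of the members and of the pathway genes, and the r values between genes, are also given without them, a choice made after seeing the data. The same 4 libraries had the highest summed levels of 7 oligodendrocyte markers, at 8705 to 9978 CPM beside 4110 to 6946 CPM in the other 8.

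Short stretches upstream of 6 members are shown because they hold the letters through which interferon and NF-kappaB signalling are known to act. The RefSeq promoter table (GRCm38.p6, 250 bases before to 50 after each start) held 8 of the 9 members. It was searched on both strands for the ISRE core GAAANNGAAA, the gamma-activated site TTCNNNGAA and the NF-kappaB consensus. Capitals mark ISRE cores in Ifit1 and Ifit3, where they read on the opposite strand, and in Bst2 and B2m, where an NF-kappaB match is in capitals too. In H2-K1 and H2-D1 they mark overlapping NF-kappaB matches. Only exact matches were sought, so a variant form of an element is neither marked nor counted. The letters TTTCACTT, which begin an ISRE core in Ifit1 and Ifit3, also stand in the H2-K1 and H2-D1 windows. They are not followed there by the rest of the core, so they were not counted. The windows lie at chr19:34640765-34640833 (+) for Ifit1, chr19:34583353-34583436 (+) for Ifit3, chr8:71537567-71537634 (-) for Bst2, chr2:122147528-122147590 (+) for B2m, chr17:34000428-34000478 (-) for H2-K1 and chr17:35262903-35262953 (+) for H2-D1.
Ifit1: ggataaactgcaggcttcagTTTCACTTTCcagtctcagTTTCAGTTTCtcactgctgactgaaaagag
Ifit3: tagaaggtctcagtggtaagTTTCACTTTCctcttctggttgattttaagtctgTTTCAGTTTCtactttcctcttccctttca
Bst2: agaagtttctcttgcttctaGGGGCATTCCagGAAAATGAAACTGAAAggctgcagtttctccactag
B2m: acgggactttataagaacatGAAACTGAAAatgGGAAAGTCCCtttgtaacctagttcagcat
H2-K1: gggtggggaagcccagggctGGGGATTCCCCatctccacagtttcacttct
H2-D1: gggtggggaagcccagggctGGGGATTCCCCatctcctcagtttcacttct
Each line reads 5′ to 3′ along the gene's strand. Ifit1 holds 2 ISRE cores, at positions -104 to -95 and -85 to -76 from the start, and Ifit3 holds 2. In Bst2 a pair of overlapping ISRE cores is joined to a gamma-activated site that overlaps both the first core and the NF-kappaB match.

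The ISRE core thus occurred in 4 of the 8 members in the table, against 3.44% of all 32851 promoters of that length, 3.99% of their genes and 3.54% of the tested genes among them. The gamma-activated site occurred in 1 of 8 (Bst2), against 8.30% of promoters, 9.55% of genes and 8.18% of tested genes. The NF-kappaB consensus occurred in 4 of 8 (B2m, Bst2, H2-K1 and H2-D1), against 8.46% of promoters, 9.55% of genes and 12.6% of tested genes. For Oasl2 and Irf7 none of these letters was in the window, which says nothing about sites elsewhere. For no member do these counts speak about variant forms of the elements. The windows of H2-K1 and H2-D1 were identical at 50 of 51 bases. A match describes letters and does not show binding in these mice.

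All 9 members had a higher mean in the libraries labelled cKO than in WT, though the fitted sign of H2-K1 and Ifi27 turned with array weights and that of Bst2 without cKO 12. Of the 9, 2 members, Ifit3 and Irf7, rose past an adjusted p of 0.05 (limma over all tested genes). None fell, and 5 had an unadjusted p under 0.05, as did 31.1% of all tested genes. Among all tested genes, 6.54% were called higher and 14.1% were called in either direction. The median log2 fold change was 0.40 over the 6 interferon-induced members and 0.12 over the 3 MHC class I members, beside 0.01 over all tested genes. Without cKO 12 these medians were 0.31 and 0.04, beside 0.00. In the authors' deposited table, the FDR was under 0.05 for Ifit3 and Irf7, against 1.63% of the listed genes with such an FDR and a higher level in cKO. edgeR's quasi-likelihood test on the recovered reads called 2 members, where 5.55% of genes were called higher, and DESeq2 called 4, where 7.91% were.

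**Figure D1:**
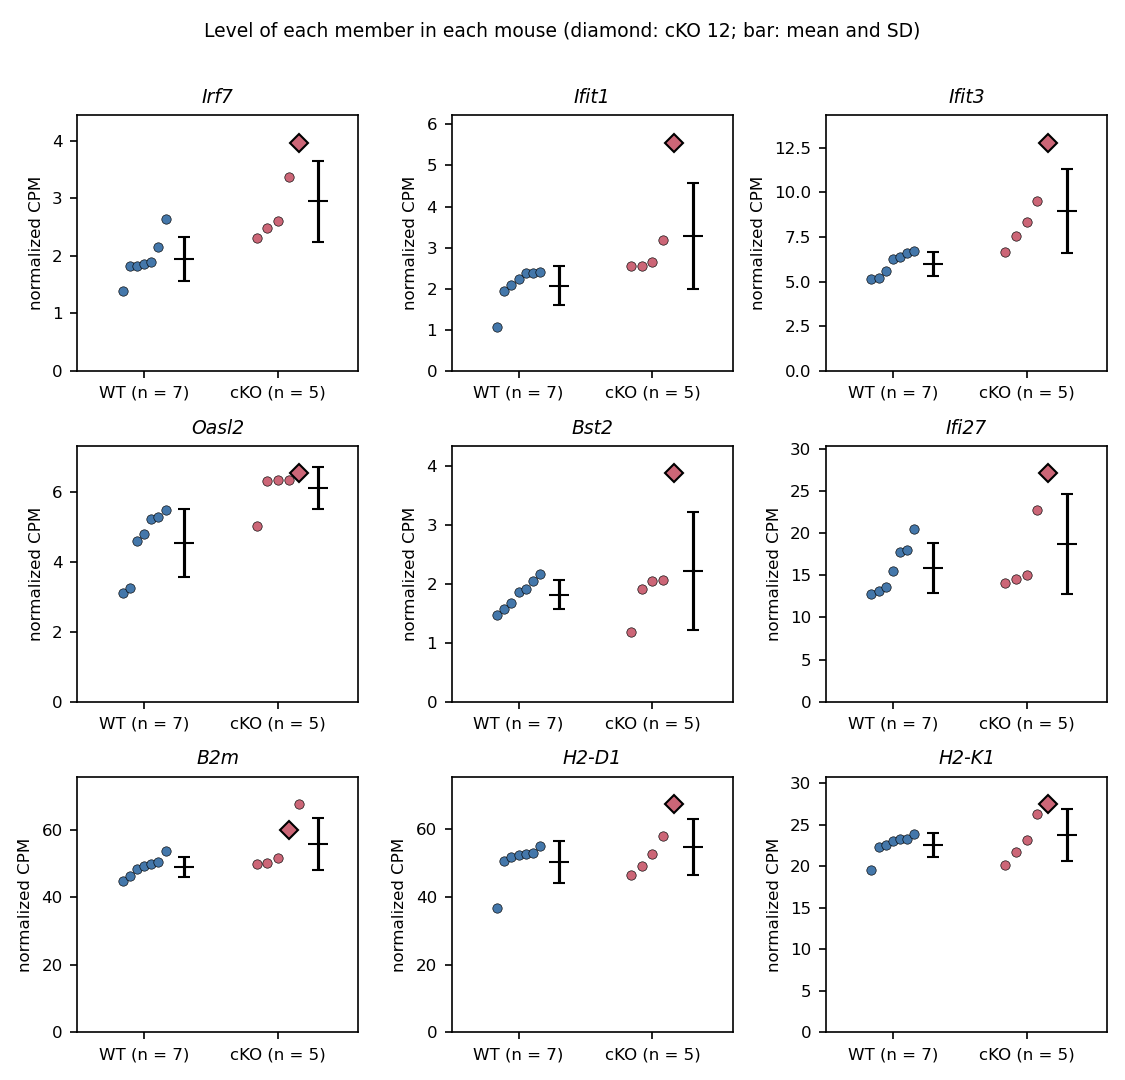
Normalized CPM of each of the 9 members (vertical axes from 0) in the 7 WT and 5 cKO mice, 1 point per mouse, with cKO 12 as a diamond and the mean and SD beside each group. Mouse cKO 12 was the highest of the 12 for 8 of the 9 members, and Ifit1 was the member whose groups did not overlap.

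Irf7 is the transcription factor that amplifies the type I interferon response. In WT its level ran from 1.40 through a median of 1.86 to 2.64 CPM. In the cKO mice it was 2.31 in cKO 8, 2.60 in cKO 9, 3.97 in cKO 12, 3.37 in cKO 13 and 2.49 in cKO 14. Mice cKO 12 and cKO 13 lay above every WT mouse, while the other 3 lay within the upper part of the WT range. The means were 1.94 ± 0.380 (SD, n = 7) and 2.95 ± 0.700 CPM (SD, n = 5). Irf7 thus differed by 0.42 ± 0.12 SE on the log2 scale, with a limma adjusted p of 0.0343. The level rests on 30 to 130 reads a library. Leaving out any 1 of these 7 mice ended the call: WT 1, WT 4, WT 5, WT 11, WT 15, cKO 12 or cKO 13. Over all 12 fits with 1 mouse removed, the log2 fold change of Irf7 was between 0.33 and 0.48, with a limma adjusted p between 0.0242 and 0.0784. The Irf7 exons share 45 bases, 1.19% of their length, with those of Phrf1 on the opposite strand, a gene at 63.1 ± 3.11 CPM in WT and 58.0 ± 3.22 CPM in cKO. Whether the counting used strand is not given in the sources used here.

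Ifit3 belongs to the Ifit family, of which Ifit1 binds foreign RNA that lacks the host's cap marks and holds back its translation. Ifit3 lay between 5.15 and 6.72 CPM in WT, with a median of 6.28. It was at 7.55 CPM in cKO 8, 6.67 in cKO 9, 12.8 in cKO 12, 9.50 in cKO 13 and 8.35 in cKO 14. The groups met only at cKO 9, which fell just under the highest WT mouse. The means were 5.996 ± 0.664 (SD, n = 7) and 8.97 ± 2.37 CPM (SD, n = 5). For Ifit3 the log2 fold change was 0.49 ± 0.12 SE, with a limma adjusted p of 0.0228. The call was lost without cKO 13 (limma adjusted p = 0.0511) and was kept in the other 11 fits that left out 1 mouse. Ifit3 shares 51.2% of its 50-base stretches with Ifit3b, so reads may be divided between them. With both genes summed, an alternative added after seeing the data, the log2 fold change was 0.49 ± 0.11 SE and the limma adjusted p was 0.0123.

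Ifit1 was the 1 member in which every cKO mouse lay above every WT mouse, a pattern held by 3.52% of all tested genes. WT levels ran from 1.07 through a median of 2.24 to 2.42 CPM. In the cKO mice Ifit1 was at 2.64 CPM in cKO 8, 2.55 in cKO 9, 5.55 in cKO 12, 3.18 in cKO 13 and 2.54 in cKO 14. The gap between the groups was narrow, from 2.42 to 2.54 CPM, and cKO 12 alone was 2.03 times the mean of the other 4 cKO mice. Ifit1 differed by 0.45 ± 0.16 SE on the log2 scale and missed the threshold (limma adjusted p = 0.0797), and by 0.29 ± 0.13 SE without cKO 12 (limma adjusted p = 0.153). Ifit1 shares 7.13% of its 50-base stretches with other genes, nearly all with Ifit1bl2.

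Oasl2, a relative of the 2′-5′-oligoadenylate synthetases that sense double-stranded RNA, had the most even cKO levels of the interferon-induced members. It was between 3.11 and 5.49 CPM in WT, with a median of 4.80. It was at 6.34 CPM in cKO 8, 6.32 in cKO 9, 6.53 in cKO 12, 5.03 in cKO 13 and 6.33 in cKO 14. Unlike the other interferon-induced members, cKO 13 was the lowest cKO mouse for Oasl2, and it alone overlapped WT. The log2 fold change was 0.38 ± 0.12 SE (limma adjusted p = 0.0562, and 0.0499 without WT 11), and 0.35 ± 0.14 SE without cKO 12 (limma adjusted p = 0.101). The values of WT 4 and WT 5, at 3.11 and 3.26 CPM, were the lowest of all 12.

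Bst2 (tetherin) holds budding virus particles at the cell surface. Its WT levels ran from 1.48 through 1.86 to 2.16 CPM, and in the cKO mice it was at 1.17 CPM in cKO 8, 1.91 in cKO 9, 3.87 in cKO 12, 2.04 in cKO 13 and 2.07 in cKO 14. Only cKO 12 lay above the WT range, and cKO 8 lay below it. The log2 fold change was 0.15 ± 0.15 SE (limma adjusted p = 0.553), -0.02 ± 0.11 SE without cKO 12 (limma adjusted p = 0.935) and 0.27 without cKO 8 (limma adjusted p = 0.195).

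Ifi27 is an interferon-induced protein of the mitochondrial and nuclear membranes. It ranged from 12.7 through 15.5 to 20.5 CPM in WT, and in the cKO mice it was at 14.1 CPM in cKO 8, 15.05 in cKO 9, 27.1 in cKO 12, 22.7 in cKO 13 and 14.6 in cKO 14. Mice cKO 12 and cKO 13 exceeded every WT mouse, and the other 3 lay under the WT mean of 15.9 CPM. For Ifi27 the log2 fold change was 0.19 ± 0.17 SE (limma adjusted p = 0.459), 0.05 ± 0.15 SE without cKO 12 (limma adjusted p = 0.843) and 0.11 without cKO 13 (limma adjusted p = 0.710).

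None of the 3 MHC class I genes passed the threshold. B2m, the invariant light chain, was between 44.8 and 53.7 CPM in WT with a median of 49.2, and at 49.7 CPM in cKO 8, 51.5 in cKO 9, 59.9 in cKO 12, 67.5 in cKO 13 and 50.1 in cKO 14. Mice cKO 12 and cKO 13 stood above all WT mice, and the other 3 lay inside the WT range. The means were 49.0 ± 2.89 (SD, n = 7) and 55.7 ± 7.79 CPM (SD, n = 5). For B2m the log2 fold change was 0.18 ± 0.07 SE and missed the threshold (limma adjusted p = 0.123). Without cKO 13 it was 0.10 (limma adjusted p = 0.268). B2m overlaps Patl2 on the opposite strand, which had a mean of 0.254 CPM, and they share 0 exonic bases.

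The heavy chains H2-D1 and H2-K1 present the peptides. H2-D1 was at 36.6 CPM in the lowest WT mouse, 52.4 at the median and 54.9 in the highest, and at 52.7 CPM in cKO 8, 48.9 in cKO 9, 67.3 in cKO 12, 57.8 in cKO 13 and 46.3 in cKO 14. H2-K1 ran from 19.6 through 23.05 to 23.9 CPM in WT, and was at 21.7 CPM in cKO 8, 23.1 in cKO 9, 27.5 in cKO 12, 26.4 in cKO 13 and 20.1 in cKO 14. Both chains showed the same order at the ends: cKO 12 and cKO 13 were above all WT mice, and WT 11 was the lowest of the 12. The log2 fold changes were 0.12 ± 0.10 SE for H2-D1 and 0.07 ± 0.07 SE for H2-K1 (limma adjusted p = 0.479 and 0.588). Without cKO 12 they were 0.04 ± 0.10 SE and 0.01 ± 0.07 SE (limma adjusted p = 0.824 and 0.920), and without WT 11 they were 0.04 and 0.03 (limma adjusted p = 0.756 and 0.795). For H2-K1 the value was 0.03 without cKO 13 and 0.12 without cKO 14. Shared 50-base stretches made up 12.8% of H2-D1 and 9.63% of H2-K1. With their reads summed, an alternative added after seeing the data, the log2 fold change was 0.10 ± 0.09 SE (limma adjusted p = 0.487).

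Compared per length of exon in WT, B2m was at 56.9 ± 3.36 CPM per kb (SD, n = 7), H2-D1 at 19.5 ± 2.39, Ifi27 at 10.8 ± 2.004, H2-K1 at 7.67 ± 0.480, Ifit3 at 3.44 ± 0.380 and Bst2 at 2.01 ± 0.278. Ifit1 at 0.783 ± 0.179, Oasl2 at 0.712 ± 0.153 and Irf7 at 0.514 ± 0.101 CPM per kb ended the order. Neighbours differed by more than their SDs combined down to Ifit1, while Ifit1 and Oasl2, and Oasl2 and Irf7, did not.

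**Figure D2:**
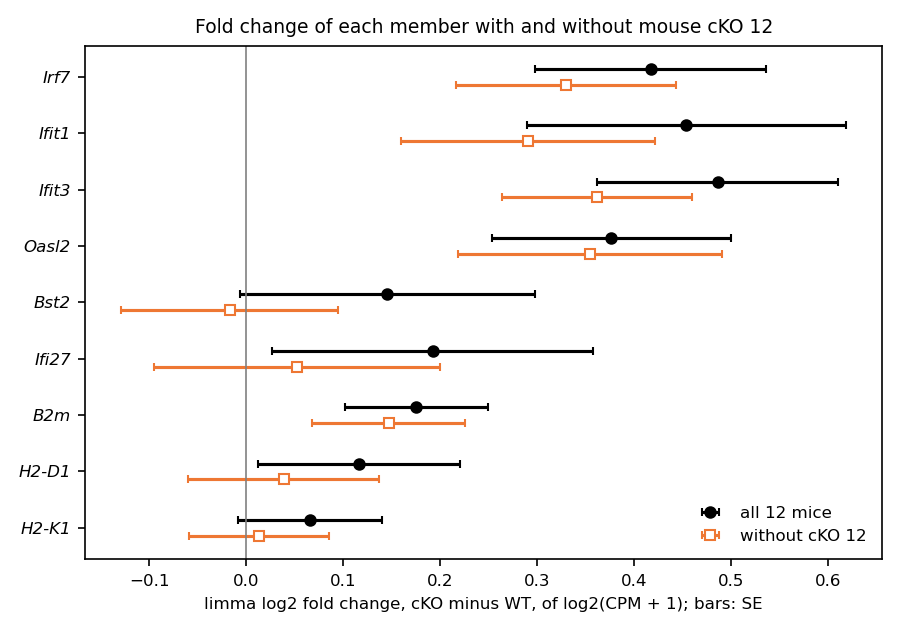
Limma log2 fold change of each member, cKO minus WT, on the log2(CPM + 1) scale, with SE, from all 12 mice (filled circles) and without cKO 12 (open squares). Without that mouse the values of Irf7, Ifit1, Ifit3 and Oasl2 fell to between 0.29 and 0.36, and Bst2 came to -0.02.

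Mouse cKO 12 was the highest of the 12 mice for 8 of the 9 members and among the top 2 for all 9, where 8.92% of all tested genes had their highest level in that mouse. For B2m, the remaining member, cKO 13 was highest, and cKO 13 was among the top 2 for 7 of 9. Without cKO 12, 1 member was called higher, Ifit3 at 0.36 ± 0.10 SE on the log2 scale (limma adjusted p = 0.0319), where 6.02% of all tested genes were. Irf7 was then at 0.33 ± 0.11 SE (limma adjusted p = 0.0733), and 8 of 9 means stayed above WT. Without cKO 13, 0 members were called, with Ifit3 at 0.46 (limma adjusted p = 0.0511) and Irf7 at 0.38 (limma adjusted p = 0.0784).

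Without the 4 libraries low in hypothalamus markers, which leaves 5 WT and 3 cKO mice, 0 of the 9 members passed limma's threshold, where 4.11% of all tested genes were called higher and 1580 were called in all. Unadjusted limma p was under 0.05 for 2 members. The share of all tested genes under it in this smaller fit is not given here. The 31.1% above belongs to the fit of all 12 mice and is no like measure. Oasl2 came closest, at 5.08 ± 0.366 (SD, n = 5) and 6.33 ± 0.00648 CPM (SD, n = 3), or 0.27 ± 0.08 SE on the log2 scale (limma adjusted p = 0.0536). Ifit3 was at 0.24 ± 0.10 SE (limma adjusted p = 0.147), Ifit1 at 0.27 ± 0.16 SE (limma adjusted p = 0.279) and Irf7 at 0.18 ± 0.11 SE (limma adjusted p = 0.297). Bst2 was at -0.10 ± 0.14 SE (limma adjusted p = 0.657), and Ifi27 was at 0.01 ± 0.10 SE (limma adjusted p = 0.973), with a cKO mean of 14.55 CPM beside 14.59 in WT. The 3 MHC class I members were then at 0.08 for B2m, 0.00 for H2-D1 and -0.05 for H2-K1. The 4 libraries include cKO 12 and cKO 13, in the top 2 for 9 and 7 of the 9 members. Leaving them out thus lowers the cKO means of most members by itself, and fewer mice remain. The part of the regional markers in the members' differences was not tested.

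**Figure D3:**
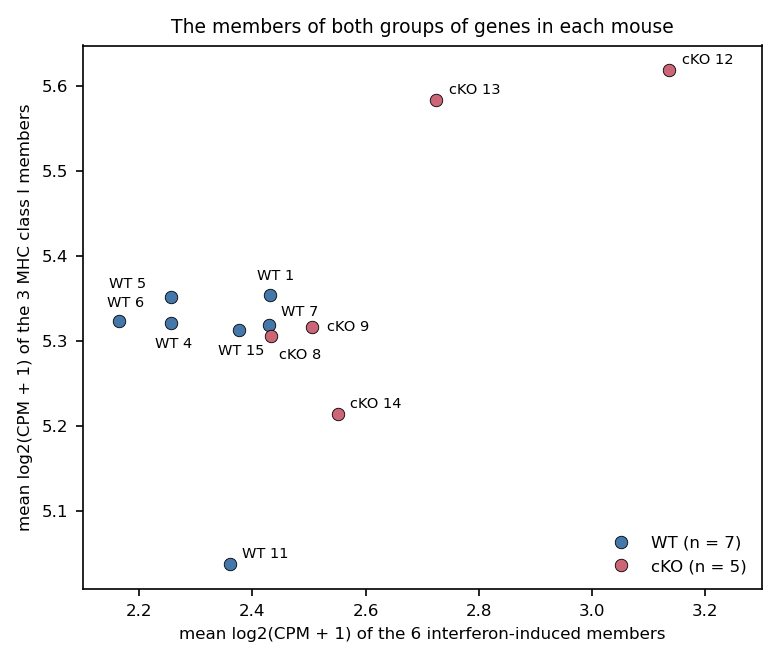
Mean log2(CPM + 1) of the 6 interferon-induced members (horizontal) and of the 3 MHC class I members (vertical) in each mouse, coloured by group; neither axis starts at 0. Mice cKO 12 and cKO 13 lay highest on both axes, at 3.14 and 2.73 and at 5.62 and 5.58, while WT 11 was the lowest on the vertical axis, at 5.04.

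The members' variation from mouse to mouse was compared pair by pair. With group means removed, the 3 pairs of class I genes had a median Pearson r of 0.77 over 12 mice, and 0.77 without cKO 12. The 15 pairs of interferon-induced genes had a median r of 0.55, and 0.23 without cKO 12, and the 18 pairs between both kinds had 0.45 and 0.19. Single pairs ranged widely over the 12 mice, from -0.46 to 0.84 among the interferon-induced genes and from -0.52 to 0.86 between both kinds. Ifi27 went more closely with the class I genes (r = 0.86 with B2m, 0.78 with H2-K1 and 0.67 with H2-D1) than with the others of its own arm. With those r was 0.64 for Ifit1, 0.57 for Bst2, 0.55 for Ifit3, 0.30 for Irf7 and -0.46 for Oasl2. In the 7 WT mice alone the medians were 0.58, 0.28 and -0.14 in the same order, and in the 8 mice without the 4 libraries low in hypothalamus markers they were 0.74, 0.24 and 0.03. These r values are a description, and the points of a pair share their library and its depth. The interferon-induced mean set cKO 12 (3.14) apart from the next mouse, cKO 13 (2.73), and the other 3 cKO mice (2.43 to 2.55) began where the WT mice ended (2.16 to 2.43).

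Irf7 was set against each other member over the 12 mice, with group means removed, in 8 relations. By Pearson r it went most closely with Bst2, at r = 0.69 (permutation p = 0.0166, adjusted 0.129) and Spearman rho = 0.55 (permutation p = 0.0861, adjusted 0.172). Ifit3 followed at r = 0.67 (permutation p = 0.0323, adjusted 0.129) and rho = 0.60 (permutation p = 0.0733, adjusted 0.172). By rank the order was another: H2-K1 was highest at rho = 0.69 (permutation p = 0.0415, adjusted 0.172) with r = 0.62 (permutation p = 0.0628, adjusted 0.167), then H2-D1 at rho = 0.64 (permutation p = 0.0485, adjusted 0.172) with r = 0.50 (permutation p = 0.114, adjusted 0.228). No relation passed the adjusted threshold. Without cKO 12 and cKO 13, the mice farthest from the median of Irf7, r was 0.37 and rho 0.49 for Bst2, and r was 0.19 and rho -0.04 for Ifit3. For H2-K1 r was then 0.12 and rho 0.20, and for H2-D1 they were 0.09 and 0.03. In the 7 WT mice alone Bst2 had r = 0.39 (permutation p = 0.392) and rho = 0.29. Leaving out the most extreme mice also narrows the range of Irf7, which lowers r by itself.

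The genes whose within-group pattern was most like each arm were ranked over 15350 other tested genes by Pearson r with the arm's mean. For the interferon-induced mean they were Tor1aip1 (r = 0.92), Arhgef28 (0.90), Samd9l (0.88), Fkbp15 (0.87) and Gm41662 (0.87), of which Samd9l is itself an interferon-stimulated gene. Without cKO 12 these r values were between 0.68 and 0.79, at ranks 45 to 222, and without the 4 libraries low in hypothalamus markers they were between 0.60 and 0.95. For the MHC class I mean they were Cyp11a1 (r = 0.98), Rmst (0.97), Klhl33 (0.96), Hpca (0.95) and Rom1 (0.95), and without cKO 12 they stayed between 0.93 and 0.98, at ranks 1 to 21, and without the 4 libraries between 0.87 and 0.98. All of these genes were picked for the highest r over the same mice, so a high r was built in. The r values in fewer of those mice are no independent check. Cyp11a1 makes pregnenolone from cholesterol, the entry step of steroid synthesis. It was at 1.29 ± 0.400 CPM in WT and 4.202 ± 1.56 CPM in cKO, which is 1.16 ± 0.19 SE on the log2 scale (limma adjusted p = 0.00396), a difference that the removal of group means keeps out of the r above.

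Upstream in the pathway, the interferons themselves were hardly detected. Of 21 listed interferon genes 13 were in the table and 0 reached 1 CPM, and no library held more than 8 reads of any of them. Their summed level was 0.0433 to 0.279 CPM in WT and 0.0839 to 0.280 in cKO, where 3 reads, taken as the floor, are worth 0.0436 to 0.178 CPM. Of 5 tested receptor chains 0 were called in limma, and 0 had an unadjusted p under 0.05.

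**Figure D4:**
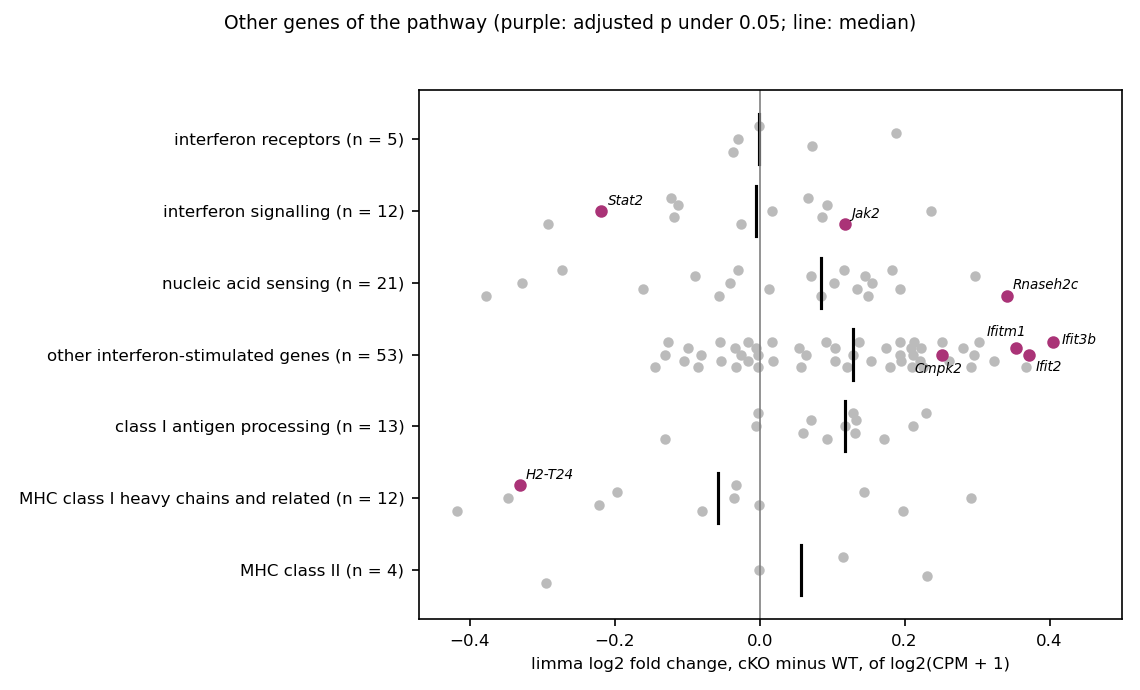
Limma log2 fold change (cKO minus WT, log2(CPM + 1) scale) of the tested genes of 7 pathway lists other than the members, 1 point per gene, with purple points past an adjusted p of 0.05 and a line at each list's median. The purple points at the right are Jak2, Rnaseh2c and 4 interferon-stimulated genes, and those at the left are Stat2 and H2-T24.

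Of 12 tested signalling genes, 1 was called higher and 1 lower, near the 6.54% and 7.6% of all tested genes called in those directions. Jak2, a kinase of the interferon-gamma receptor, rose by 0.12 ± 0.03 SE (limma adjusted p = 0.0296). Stat2, a transcription factor of the type I response, fell by 0.22 on the log2 scale, from 32.0 ± 2.77 (SD, n = 7) to 27.3 ± 2.18 CPM (SD, n = 5; limma adjusted p = 0.0424). Without the 4 libraries low in hypothalamus markers neither was called (limma adjusted p = 0.0578 for Jak2 and 0.109 for Stat2). In that fit Tyk2, a kinase of the same list, was called lower, while over all 12 mice it was not (limma adjusted p = 0.0638). The Jak2 call ended without WT 1, WT 4, WT 11, cKO 8, cKO 9 or cKO 14 (limma adjusted p 0.0286 to 0.0699 over the 12 fits with 1 mouse removed). The Stat2 call ended without WT 1, WT 4, WT 7, WT 11, cKO 8, cKO 13 or cKO 14 (limma adjusted p 0.0334 to 0.093).

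Of 53 other tested interferon-stimulated genes, 4 were called higher and 0 lower, with a median log2 fold change of 0.13. Such a count is near the 6.54% called higher among all tested genes. They were Ifit3b (3.86 ± 0.581 and 5.45 ± 0.903 CPM in WT and cKO), Ifit2 (21.0 ± 2.12 and 27.6 ± 4.29 CPM), Ifitm1 (0.875 ± 0.199 and 1.39 ± 0.114 CPM) and Cmpk2 (37.2 ± 3.72 and 44.4 ± 2.74 CPM). The WT mean of Ifitm1 lay under the minimum of 1 CPM. It was tested only through its cKO level, so no conclusion is drawn from its call. Ifit2 and Ifit3b belong to the Ifit family, Ifitm1 hinders virus entry and Cmpk2 is a mitochondrial nucleotide kinase. The calls ended without cKO 12 or cKO 13 for Ifit2 and Cmpk2, and without cKO 9 or cKO 12 for Ifit3b. Without cKO 12, 1 of the 4 was still called, Ifitm1, the gene tested only through its cKO level. Without the 4 libraries low in hypothalamus markers 0 of the 4 were called, with limma adjusted p between 0.143 and 0.157. Mouse cKO 12 was the highest of the 12 for 34 of these 53 genes, again beside 8.92% of all tested genes. Cxcl10, a chemokine that draws T cells and was chosen after its values were seen, was at 1.31 CPM in cKO 12 and at 0 to 0.233 CPM in the other 11 mice.

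Among 21 tested genes of nucleic acid sensing and its restraint, Rnaseh2c, a subunit of the enzyme that removes ribonucleotides from DNA, was called higher (14.5 ± 1.67 and 18.7 ± 1.99 CPM, log2 fold change 0.34 ± 0.08 SE, limma adjusted p = 0.0187) and 0 were called lower. That 1 call in 21 is near the 6.54% of all tested genes called higher. Rnaseh2c stayed past the threshold with any 1 mouse removed, but not without the 4 libraries low in hypothalamus markers (0.27 ± 0.10 SE, limma adjusted p = 0.111). Of 12 tested heavy chains and related genes other than the members, 0 rose and 1 fell, H2-T24, from 8.54 ± 0.663 to 6.68 ± 1.56 CPM (log2 fold change -0.33 ± 0.10 SE, limma adjusted p = 0.0484). That 1 fall in 12 is near the 7.6% of all tested genes called lower. In 4 cKO mice H2-T24 was at 5.41 to 6.51 CPM, under all WT mice, but in cKO 12 it was at 9.38. The H2-T24 call held without WT 7 or cKO 12 and ended without any 1 of the other 10 mice (limma adjusted p 0.00589 to 0.113). Without the 4 libraries low in hypothalamus markers H2-T24 was still called lower, and so was H2-M5, which was not called over all 12 mice (limma adjusted p = 0.0783). Of 13 antigen-processing genes and 4 MHC class II genes 0 were called, with 5 and 1 at an unadjusted limma p under 0.05, beside 31.1% of all tested genes. The summed level of the antigen-processing list was nevertheless higher in every cKO mouse (1428 to 1502 CPM) than in every WT mouse (1322 to 1404 CPM), the 1 of 24 pathway and marker lists whose sums did not overlap. Most of that sum came from the chaperones of the endoplasmic reticulum, Canx (580 ± 15.7 and 619 ± 19.4 CPM), Calr (377 ± 15.2 and 396 ± 13.9 CPM) and Pdia3 (223 ± 4.24 and 232 ± 10.5 CPM), chosen after their values were seen. Counting each gene once, 6 of 116 tested pathway genes were called higher and 2 lower. Among all tested genes 6.54% were called higher and 7.6% lower. The split depended on the setting: 15 higher and 0 lower after median centring, where 8.97% and 6.86% of all tested genes were called, and 15 and 0 after quantile normalization, where 6.75% and 6.54% were. With array weights it was 14 and 15, where 15.7% and 17.7% were. Without the 4 libraries low in hypothalamus markers it was 0 and 3, the 3 being Tyk2, H2-T24 and H2-M5. In that fit 4.11% of all tested genes were called higher and 1580 were called in all.

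Markers of cell types that carry interferon or class I transcripts were read from the same fit. Of 15 microglial markers, all tested, 1 rose, Fcrls (13.6 ± 1.69 and 18.3 ± 1.77 CPM, limma adjusted p = 0.0124), a share near the 6.54% of all tested genes called higher. The summed level of the microglial markers was 328 to 383 CPM in WT and 367 to 384 CPM in cKO, with cKO 12 the lowest cKO mouse. Of 12 endothelial markers 0 were called, and their sum was 432 to 525 CPM in WT and 460 to 528 in cKO. By mouse, the endothelial sum was 528 CPM in cKO 13, 525 in WT 5, 514 in cKO 12, 438 in WT 11 and 432 in WT 6, the lowest. The astrocyte sum was 4348 in cKO 13, 4260 in cKO 12 and 3240 in WT 11, and the mural cell sum was 282, 260 and 206. For astrocytes and mural cells cKO 13 and cKO 12 were the highest of the 12 mice, and WT 11 was the lowest for astrocytes. Of 7 T cell markers Trac alone reached 1 CPM, at 2.87 ± 0.440 and 3.18 ± 0.677 CPM, and of 4 B cell and 4 neutrophil markers 0 did, with sums of at most 0.627 and 0.269 CPM. In bulk tissue, fewer cells of a type and less RNA per cell cannot be told apart.

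Thalamic markers were lower in the libraries labelled cKO. Of 8 thalamic markers 0 rose and 4 fell (Prkcd, Rora, Ntng1 and Plekhg1), where 7.6% of all tested genes were called lower. Without cKO 12 the count was 2, with Ntng1 at a limma adjusted p of 0.0618 and Plekhg1 at 0.102. For all 8 markers the summed level was 1098 to 1792 CPM in WT and 815 to 1158 in cKO. Mouse cKO 12, the highest for most members, had the lowest sum, and WT 11, the lowest for H2-D1 and H2-K1, had the highest. The order did not hold throughout: cKO 13, in the top 2 for 7 members, had a sum of 1105 CPM, above cKO 8 at 984 and cKO 9 at 1083. Of 11 tested hypothalamic markers 1 rose, Sim1 (14.9 ± 2.48 and 22.7 ± 4.89 CPM), a share near the 6.54% of all tested genes, and the summed levels of the list overlapped between the groups. Without the 4 libraries low in hypothalamus markers, 1 thalamic marker, Prkcd, was still called lower, and Sim1 was still called higher. In that fit 3 of 8 neuronal markers (Slc32a1, Gad1 and Gad2) were called higher, where 4.11% of all tested genes were. Slco1a4 (endothelium) and Col1a2 (meninges) were called lower. Of the microglial markers 0 were called, though their sums no longer overlapped, at 327.9 to 372.43 CPM in WT and 372.47 to 380.6 CPM in cKO. Over all 12 mice, 0 were called of the tested markers of border macrophages (2), blood (5), mural cells (6), meninges (6), choroid plexus (2), ependyma (5), astrocytes (7), oligodendrocytes (7) and neurons (8). The part of these levels in the members' differences was not tested.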

How the data were processed

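The values used are normalized CPM per gene and library as the authors deposited them. A further deposited table holds the authors' own log2 fold changes, p-values and FDR. Per the submitters' processing notes, bcl2fastq, FastQC 0.11.9, STAR 2.7.9a, SAMtools, Subread and featureCounts were used. The genome build, annotation and strand setting are not given in the sources used here. The deposited CPM values were whole multiples of 1 step per library for 100% of values (tolerance 0.01 read), and the implied scaling equalled TMM, so reads were recovered. Replicates within a group differed beyond sampling noise in all 31 pairs (chi-square per degree of freedom 3.04 to 26.3). The labels do not say that mice were handled in batches, and no mouse number pairs the groups.

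The main test was limma 3.58.1 (R 4.3.3; lmFit, eBayes with trend) on log2(CPM + 1), for genes averaging 1 CPM or more, two-sided, with Benjamini-Hochberg adjustment over all tested genes. It called 1004 genes higher and 1168 lower, and 1377 higher and 1054 lower after median centring. This scale understates changes of low genes. On recovered reads edgeR 4.0.16 (quasi-likelihood) called 966 genes higher, and DESeq2 1.42.0 called 1442 higher. The limma step was also tried on simulated data, whose outcome is not given here, and no statement above rests on it. Correlations used 100000 permutations of mice within groups.

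The members and lists were chosen with earlier results of these data known. Named were the 9 members, up to 5 called genes per pathway list and direction, the 5 genes most like each arm, and Smc3. In the signalling list, 1 gene is not reported here. Exon lengths and shared 50-base stretches came from GENCODE M21 (GRCm38), promoters from RefSeq (GRCm38.p6). Proteins were not analysed here. Alternatives were another pseudocount, filter, scaling, variance model or tool, and each mouse left out.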

Additional observations from a re-analysis of the deposited data

Results flagged for a closer look

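In 5 of 18 sets of values (9 members in each group), 1 mouse lay apart from the rest of its group by Dixon's gap test, where chance gives 0.9. H2-D1 was at 36.6 CPM and H2-K1 at 19.6 CPM in WT 11, each below the other 6 WT mice. These 2 flags concern the same library and genes that share sequence. Ifit1 was at 1.07 CPM in WT 6, below the other WT mice, and at 5.55 CPM in cKO 12, above the other cKO mice. Oasl2 was at 5.03 CPM in cKO 13, below the other cKO mice. Chance sets about 1 in 20 groups apart in this way, and members are not independent of each other.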

How the results depend on the processing

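No paired analysis was possible because the numbers of the WT and cKO mice do not overlap. Of all tested genes limma called 2172, 5126 with array weights and 1158 to 2302 with 1 mouse left out, lowest without WT 1. Of the 9 members it called 2, 1 with all genes above 0, 1 of the 6 still tested with a minimum of 5 CPM, which drops Irf7, 4 after quantile normalization, and 0 to 2 with 1 mouse left out (0 without cKO 13). edgeR without a filter called 1 and DESeq2 4. Without the 4 libraries low in hypothalamus markers it was 0. Of the other pathway genes 8 were called, 5 with all genes above 0, 15 after median centring or quantile normalization, 29 with array weights, 4 in edgeR without a filter, 19 in DESeq2 and 3 without those 4 libraries, and 5 to 10 with 1 mouse left out (5 without WT 1, cKO 12 or cKO 13). Fold changes reversed for H2-K1 (-0.022) and Ifi27 (-0.042) with array weights, for Bst2 with 1 mouse left out (-0.017 to 0.27, negative without cKO 12), and without the 4 libraries for H2-K1 (-0.049) and Bst2 (-0.10). The cause was not tested. Relations with Irf7 past the threshold were 0, and 0 to 3 with 1 mouse left out (3 without WT 6). Without the 2 mice farthest in Irf7 and in the 7 WT mice alone, r turned to -0.40 and -0.45 for B2m, -0.12 and -0.11 for Ifit1, and -0.71 and -0.74 for Ifi27. With 1 mouse left out it ran from -0.10 to 0.58 for Ifi27 and from -0.051 to 0.35 for Oasl2. Of 190 values of the 8 named pathway genes, 140 kept direction and call, 50 lost the call and 0 reversed. Depth limits Irf7, Bst2 and Ifit1, which rest on as few as 24 to 30 reads.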
